A study of Homo sapiens with 26 samples.

Results

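The mRNA of 10 adhesion and cytoskeleton genes was followed through the single cell-derived cell lines (SCDCLs): the cadherin genes CDH1, CDH2, CDH3, CDH4, CDH6, CDH11 and CDH13, the intermediate filament gene VIM, and L1CAM and NCAM1. They are 10 of the 41078 genes of the table and were taken by symbol, all 10 being present. SCDCLs are clones grown by limiting dilution from single cells of pancreatic ductal adenocarcinoma lines, and 1 polyadenylated, strand-specific mRNA library was sequenced from each of 26 of them. Of these, 12 were labelled BxPC3, a line described as classical-like, and 14 were labelled Panc-1, described as basal-like. Both lines were grown in the same serum-containing medium, and every sample label names gemcitabine as treatment, although the methods describe the drug only for separate viability assays. No library has a replicate from the same SCDCL, so differences between clones and between libraries of 1 clone cannot be told apart. The response of each SCDCL to gemcitabine and the protein data were not analysed here.

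BxPC3 is known to have lost SMAD4, the mediator of TGF-beta signaling, whereas Panc-1 retains it, so SMAD4 serves as a check of the labels. SMAD4 lay between 0 and 0.0440 TPM in 12 libraries and between 28.1 and 52.2 TPM in 14. TPM is a share of all transcripts in a library and is corrected for transcript length. Each label covered both kinds: 5 of the libraries labelled BxPC3 and 7 of those labelled Panc-1 were under 1 TPM, and 7 of each label were above. SMAD4 therefore went against the label in 7 libraries labelled BxPC3 and in 7 labelled Panc-1. For this reason the libraries are described below by SMAD4 level, as the 12 libraries without and the 14 libraries with SMAD4 mRNA, and a line name is used only for the label. Because the sets come from a measured value, their ranges are given as a description without a test. Depth was alike in both, with 27144920 to 34945608 estimated counts in the 12 and 27035724 to 32601392 in the 14.

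Classical cadherins are calcium-dependent receptors that bind the same cadherin on the next cell and are tied to actin through catenins. E-cadherin, encoded by CDH1, holds epithelial sheets together. In the exchange known as the cadherin switch, cells lose it and gain N-cadherin, encoded by CDH2, often with the filament protein vimentin. P-cadherin, encoded by CDH3, is a close relative of E-cadherin found in basal epithelial layers and in many carcinomas. L1CAM and NCAM1 are adhesion molecules of the immunoglobulin family, best known from neurons, and L1CAM is also found on pancreatic cancer cells.

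Promoter sequences were matched for CDH2, CDH4, VIM and L1CAM in a RefSeq table of GRCh38.p14, which gives 250 bases before and 50 after a transcription start. They were not matched for CDH1, CDH3, CDH6, CDH11, CDH13 and NCAM1. Those of CDH2, VIM and L1CAM are shown because they are the matched genes that reached 1 TPM, with each CG dinucleotide in capitals. The first window, chr18:28177081-28177380 on the minus strand, belongs to the upstream of 2 CDH2 starts. The second, chr10:17227991-17228290 on the plus strand, belongs to VIM. The third, chrX:153875895-153876194 on the minus strand, belongs to the downstream of 2 L1CAM starts. Both L1CAM windows lie within the annotated gene, which begins at 153886173 on that strand. Both CDH2 windows likewise lie within annotated CDH2, which begins at 28177946 on the minus strand. No window at either of these annotated starts was examined.
CDH2: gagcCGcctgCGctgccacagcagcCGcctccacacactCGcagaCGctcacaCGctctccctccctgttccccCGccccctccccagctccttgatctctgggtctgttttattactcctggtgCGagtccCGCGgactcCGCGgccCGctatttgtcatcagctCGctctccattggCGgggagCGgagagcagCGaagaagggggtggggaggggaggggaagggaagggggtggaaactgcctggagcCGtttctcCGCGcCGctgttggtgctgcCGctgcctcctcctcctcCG
VIM: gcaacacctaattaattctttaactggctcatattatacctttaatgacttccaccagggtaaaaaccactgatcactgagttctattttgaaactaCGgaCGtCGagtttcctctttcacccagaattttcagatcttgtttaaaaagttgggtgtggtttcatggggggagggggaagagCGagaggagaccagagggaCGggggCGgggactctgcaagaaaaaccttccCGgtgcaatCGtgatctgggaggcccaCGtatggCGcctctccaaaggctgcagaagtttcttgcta
L1CAM: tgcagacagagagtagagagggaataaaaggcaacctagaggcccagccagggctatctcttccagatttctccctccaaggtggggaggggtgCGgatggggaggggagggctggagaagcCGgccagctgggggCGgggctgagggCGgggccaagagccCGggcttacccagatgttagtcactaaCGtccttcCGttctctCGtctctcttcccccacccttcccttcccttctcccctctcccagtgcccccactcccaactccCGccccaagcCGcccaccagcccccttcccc
The CDH2 window held 23 CG dinucleotides and 67.0% G and C, and the windows of VIM and L1CAM held 10 each, with 48.0% and 64.7% G and C. Over all 35116 promoter windows the median was 14 CG dinucleotides and 58.7% G and C, and 35.8% of windows held at least as many CG as CDH2 and 56.4% at least as many as VIM or L1CAM. The E-box CAGGTG, the motif recognised by SNAI and ZEB factors, was searched on both strands (CAGGTG or CACCTG, which are reverse complements). It was in 20.6% of all windows, in none of the windows of CDH2, VIM and L1CAM, and in 1 of the 2 windows of CDH4.

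The 10 genes fell into 3 kinds. Of the 10, 8 reached 1 TPM in at least 1 library; CDH4 and CDH13 did not. CDH1 and CDH3 were higher in every library without SMAD4 than in any library with it. VIM, L1CAM and, by a narrow margin, NCAM1 were higher in every library with SMAD4. The ranges of CDH2, CDH4, CDH6, CDH11 and CDH13 overlapped. Complete separation was common in these data. Of 18663 genes with at least 1 TPM in any library, 13.3% were higher in all of the 14 libraries and 13.2% in all of the 12. The 3 and 2 genes here, of the 8 that reached 1 TPM, are to be read against these shares. NCAM1 counts among the 8 only through library 19, with 8.18 TPM, which belongs to the set where it is higher. For the 14 this leaves VIM and L1CAM as genes to set against the share.

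**Figure D1:**
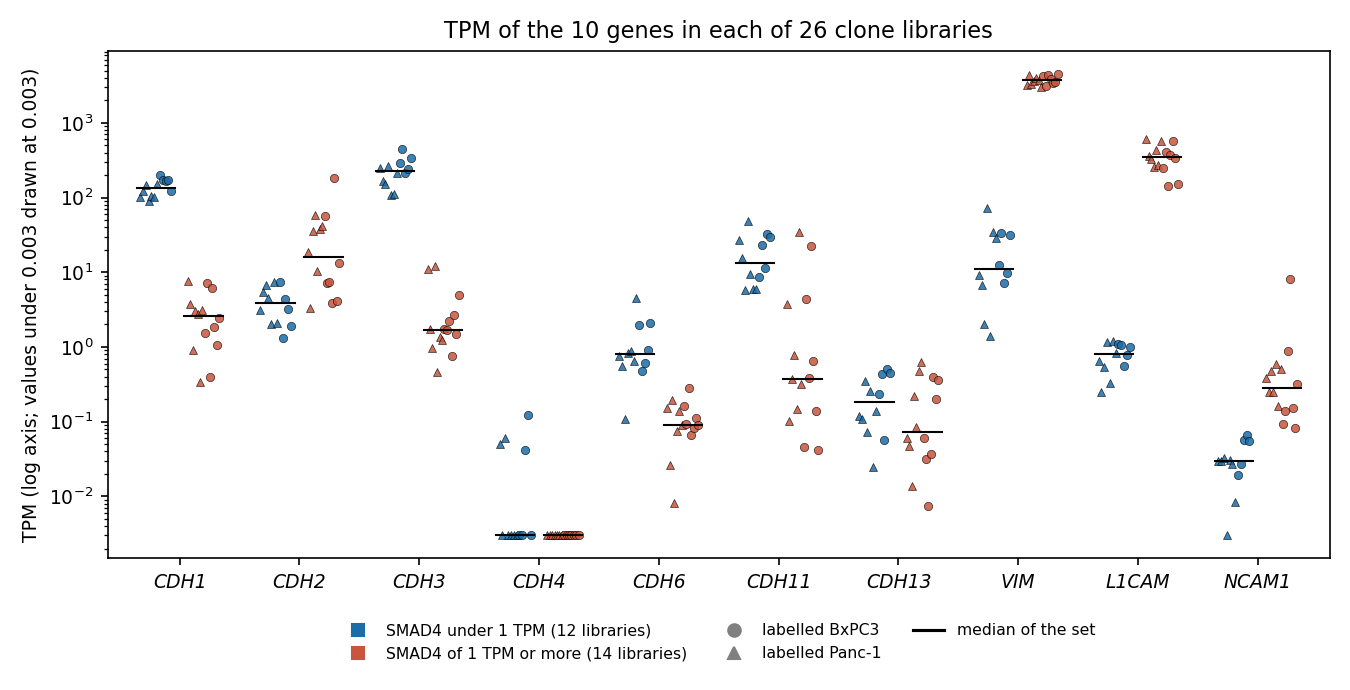
TPM (log axis) of the 10 genes, 1 point per library, coloured by SMAD4 level and shaped by label, with a bar at the median of each set. CDH1 and CDH3 lie higher in the 12 libraries without SMAD4 and VIM and L1CAM higher in the 14 with it, while circles and triangles mix within each set.

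CDH3 was the most abundant of the 7 cadherin genes in all 12 libraries without SMAD4. Its level there ran from 110 TPM in library 5 through a median of 229 to 443 TPM in library 21, a 4.04-fold range. In the 14 libraries with SMAD4 it ran from 0.463 TPM in library 12 through a median of 1.70 to 12.01 TPM in library 11. The ranges did not overlap, the lowest of the 12 being 9.12 times the highest of the 14. Within the 14, libraries 8 and 11 stood above the rest with 10.9 and 12.01 TPM, the next being library 23 with 4.88 TPM.

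CDH1 had the same direction with a narrower spread. It ran from 90.8 TPM in library 4 through a median of 136 to 198 TPM in library 16 in the 12, and from 0.338 TPM in library 13 through a median of 2.62 to 7.74 TPM in library 8 in the 14. Again no library of one set reached the other, with an 11.7-fold gap. CDH1 thus varied 2.18-fold among the 12 libraries and 22.9-fold among the 14, where its levels rest on as few as 27.1 estimated counts. CDH3 exceeded CDH1 in 12 of the 12 libraries, by 1.02 to 2.89 times, and in 9 of the 14, with ratios of 0.125 to 5.48. In libraries 10 and 15 of the 9, CDH3 had 0.982 and 1.75 TPM and CDH1 0.917 and 1.53 TPM. Counting error there was 8.84% to 12.7% of the level, so their order is uncertain. The genes are neighbours on chromosome 16 in GRCh38, with CDH3 at 68636189 to 68727468 and CDH1 at 68737292 to 68835537, both on the plus strand and 9823 bases apart.

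CDH2 did not separate the sets. In the 12 libraries without SMAD4 it ran from 1.31 TPM in library 21 through a median of 3.84 to 7.45 TPM in library 16. In the 14 it ran from 3.35 TPM in library 9 through a median of 16.03 to 184 TPM in library 20, and 9 of the 14 lay above all of the 12. The other 5, libraries 9, 17, 18, 19 and 22, had 3.35, 7.21, 7.37, 3.93 and 4.12 TPM, which is within the range of libraries that hold CDH1 at over 90 TPM. Library 20 stood apart, the next being library 11 with 59.1 TPM. The levels among the 14 rest on 244 to 11815 estimated counts, so that counting error was at most 6.40% of the level, whereas the levels spanned a 55.0-fold range. CDH2 lies on chromosome 18 at 27932879 to 28177946, minus strand, in GRCh38.

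CDH11, which encodes OB-cadherin of osteoblasts and fibroblasts, was present in all libraries without SMAD4 and low in most of the others. In the 12 it ran from 5.84 TPM in library 3 through a median of 13.5 to 48.7 TPM in library 4. In the 14 it ran from 0.0419 TPM in library 23 through a median of 0.378 to 34.7 TPM in library 13. Of the 14, 12 lay below every one of the 12, whereas libraries 13 and 19, with 34.7 and 22.5 TPM, lay among them. Libraries 8 and 17 were intermediate with 3.74 and 4.41 TPM, and the remaining 10 were under 1 TPM, where counting error reached 68.6% of the level.

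The remaining cadherins were low. CDH6, encoding K-cadherin of the developing kidney, ran from 0.107 to 4.48 TPM in the 12, with the highest level in library 7, and from 0.00805 to 0.286 TPM in the 14. All of the 12 except library 3 lay above the 14, and without library 3 the sets did not overlap. CDH6 in the 14 rests on 0.748 to 27.5 estimated counts, with counting error of up to 116% of the level. Poisson bounds were not applied with library 3 left out. CDH13 encodes T-cadherin, which is held in the membrane by a lipid anchor and has no cytoplasmic tail. It stayed at or under 0.505 TPM in the 12 and at or under 0.628 TPM in the 14, with at most 30.2 estimated counts. CDH4, encoding R-cadherin of the retina, was listed at 0 in 8 of the 12 libraries and in all 14 others, and its highest level was 0.124 TPM in library 25. CDH4 and CDH13 rest on few estimated counts, and a difference between the sets was not tested for them.

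Set against each other, the 7 cadherin genes summed to 227 to 639 TPM in the libraries without SMAD4, with a median of 390. In the libraries with SMAD4 they summed to 7.11 to 190 TPM, with a median of 35.7. In the former CDH3 made up 48.3% to 69.4% of the sum, CDH1 22.3% to 47.5%, CDH11 1.59% to 11.9% and CDH2 at most 3.21%. In the latter CDH2 led in 12 of the 14 libraries, with 11.8% to 97.0% over all 14, while CDH1 led in library 9 with 41.6% and CDH11 in library 19 with 67.4%. In library 9 CDH2 followed CDH1 with 37.2%. In library 13 CDH2 led narrowly over CDH11. In library 17 CDH2 and CDH1 were nearly level at 35.1% and 34.6%. That gap was within their counting errors of 4.32% and 3.80% of the level. CDH2 exceeded CDH1 in 12 of the 14 libraries, library 17 among them, with ratios of 0.645 to 112, and in none of the 12. The higher share of CDH2 stood beside a lower total, and the highest sum among the 14, in library 20, was under the lowest among the 12, in library 5. These are values of mRNA from whole cultures, in which fewer cells of a type and less RNA per cell cannot be told apart.

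**Figure D2:**
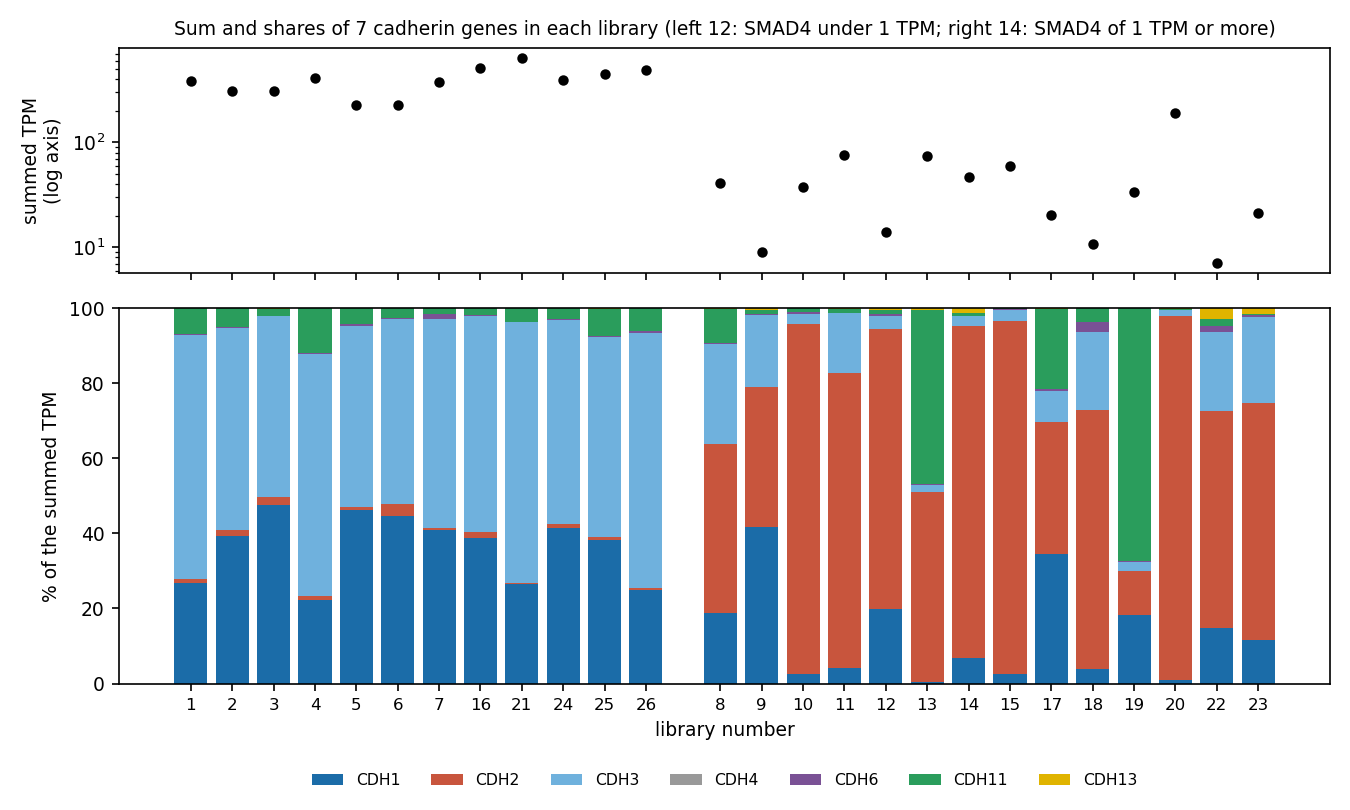
Summed TPM of the 7 cadherin genes (upper panel, log axis) and the share of each gene in that sum in percent (lower panel, stacked bars) for every library, ordered by SMAD4 set and library number. CDH3 and CDH1 fill most of the bars of the 12 libraries on the left, and CDH2 leads in 12 of the 14 on the right, with CDH11 at 67.4% in library 19. CDH2 and CDH1 are nearly level in library 17.

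VIM showed one of the widest gaps among the 10 genes. It ran from 1.42 TPM in library 5 through a median of 11.05 to 73.2 TPM in library 4 in the 12 libraries without SMAD4. In the 14 with SMAD4 it ran from 3047 TPM in library 14 through a median of 3718 to 4526 TPM in library 23. The lowest of the 14 was 41.6 times the highest of the 12. Spread differed in the opposite way to that of CDH1, with a 51.6-fold range among the 12 and a 1.49-fold range among the 14. The 5 libraries among the 14 with CDH2 at 7.37 TPM or less had VIM at 3157 to 4380 TPM, within the range of the other 9.

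L1CAM had the widest gap of the 10 genes, the lowest of the 14 libraries being 118 times the highest of the 12. It ran from 0.247 TPM in library 2 through a median of 0.803 to 1.20 TPM in library 6 in the 12. In the 14 it ran from 141 TPM in library 18 through a median of 348 to 606 TPM in library 8. Libraries 8, 14 and 20 had 569 TPM or more, and libraries 18 and 23 had 141 and 153 TPM, a 4.29-fold range over the 14. L1CAM lies on the X chromosome at 153861514 to 153886173, minus strand, in GRCh38.

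NCAM1, the founder of the neural cell adhesion molecules, was near the limit of detection in most libraries. It ran from 0 TPM in library 4 to 0.0661 TPM in library 25 in the 12, with at most 4.41 estimated counts. In the 14 it ran from 0.0833 TPM in library 22 through a median of 0.286 to 8.18 TPM in library 19. Library 19, with 553 estimated counts, was the only library at 1 TPM or more, the next being library 18 with 0.871 TPM. The ranges were 1.26-fold apart, with as few as 6.02 estimated counts in the 14, and overlapped once the 95% Poisson bounds of the counts stood for each library. Library 19 is also the library in which CDH11 led the cadherins. The enzymes that add polysialic acid to NCAM1 were low throughout: ST8SIA2 was at most 0.0794 TPM in any library, and ST8SIA4 at most 0.895 TPM.

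**Figure D3:**
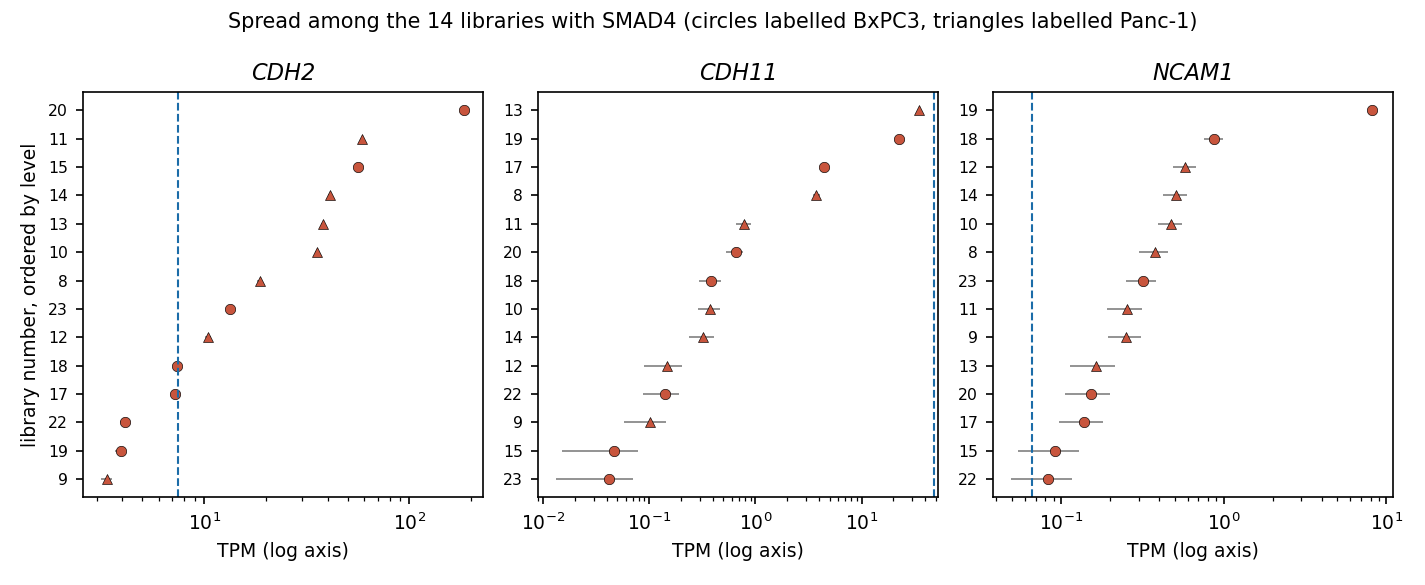
TPM (log axes) of CDH2, CDH11 and NCAM1 in the 14 libraries with SMAD4, each panel ordered by its own level, with grey bars for counting error (1 SD) and a dashed line at the highest of the 12 libraries without SMAD4. CDH2 is highest in library 20 at 184 TPM, CDH11 in libraries 13 and 19, and NCAM1 in library 19 at 8.18 TPM.

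Lists of related genes were read in the same way. Of 33 other members of the cadherin superfamily, 20 reached 1 TPM, of which 6 were higher in all libraries without SMAD4, 2 were higher in all libraries with it and 12 overlapped, beside 13.2% and 13.3% of all genes. CLSTN1, encoding calsyntenin 1, ran from 275 to 472 TPM in the 12 and from 84.8 to 163 TPM in the 14. FAT2 ran from 11.04 to 40.4 TPM against at most 0.0420 TPM, whereas its relative FAT4 ran from 0.277 to 1.54 TPM against 1.89 to 6.33 TPM. CDH5, encoding VE-cadherin of endothelial junctions, was at 1.04 to 13.6 TPM in the 12 and at most 0.0427 TPM in the 14. So large atypical cadherins of one family lay on both sides.

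Of 17 catenins and junction partners, 14 reached 1 TPM, and 6 of these were higher in all libraries without SMAD4, none in all libraries with it (13.2% and 13.3% of all genes), while 8 overlapped. NECTIN1, a nectin of the adherens junction, ran from 235 to 498 TPM in the 12 and from 2.02 to 12.6 TPM in the 14. JUP, encoding plakoglobin, ran from 227 to 461 against 44.0 to 195 TPM. CTNND1, encoding p120-catenin, which binds the tail of classical cadherins, ran from 133 to 280 against 44.0 to 102 TPM. CTNNB1, encoding beta-catenin, had 159 to 260 TPM in the 12 and 92.1 to 161 TPM in the 14, with an overlap. Catenin mRNA was therefore present in every library, also where the 7 cadherin genes summed to as little as 7.11 TPM.

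Of 20 relatives and partners of L1CAM and NCAM1, 15 reached 1 TPM, with 6 higher in all of the 12, 2 higher in all of the 14 and 7 overlapping (all genes: 13.2% and 13.3%). The 2 higher in the 14, named here after their values were seen, were ANK1, encoding an ankyrin, and FGFR1, a growth factor receptor. ANK1 ran from 1.36 to 6.72 TPM in the 12 and from 8.03 to 16.2 TPM in the 14, and FGFR1 from 3.49 to 9.38 against 18.7 to 41.1 TPM. The other ankyrins of the list, also named after their values were seen, did not share this direction. ANK3 was higher in all of the 12, at 10.9 to 23.2 TPM against at most 0.711 TPM. ANK2 overlapped, with medians of 1.94 TPM in the 12 and 0.360 TPM in the 14. MSN and EZR encode moesin and ezrin, which join membrane proteins to actin. MSN ran from 325 to 644 TPM in the 12 and from 114 to 223 TPM in the 14, and EZR from 383 to 714 against 186 to 354 TPM. ADAM10, a protease that sheds the outer part of L1CAM and of E- and N-cadherin, ran from 261 to 561 against 129 to 197 TPM. Partners of L1CAM thus lay on both sides. Of 13 intermediate filaments and filament partners, 8 reached 1 TPM, with 1 higher in all of the 12, 3 higher in all of the 14 and 4 overlapping (all genes: 13.2% and 13.3%). NES, encoding nestin, which assembles with vimentin, ran from 10.9 to 20.8 TPM in the 12 and from 45.2 to 111 TPM in the 14, and PLEC, encoding the linker plectin, from 247 to 447 against 140 to 220 TPM.

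Markers were read for the labelled epithelial tumor cells and for other cell types. KRT8, KRT18 and KRT19, keratins of simple epithelia, were at 298 TPM or more in every library, and their ranges overlapped between the sets. Their medians differed, with 461 TPM in the 12 and 2053 TPM in the 14 for KRT8. For KRT18 they were 521 and 1598 TPM, and for KRT19 1966 and 1220 TPM. EPCAM, the fourth epithelial marker, ran from 239 to 424 TPM in the 12 and from 7.49 to 25.5 TPM in the 14. The 4 leukocyte markers summed to 0.431 to 30.2 TPM in the 12 and to 0.0314 to 3.54 TPM in the 14, of which PTPRC, their defining gene, was at most 0.535 TPM and CD14 at most 29.1 TPM. The 4 endothelial markers, CDH5 among them, summed to 3.16 to 16.97 TPM and to 0.325 to 5.39 TPM. Of these, PECAM1 ran from 0.897 to 6.07 TPM in the 12 and from 0.321 to 5.38 TPM in the 14. VWF was at most 0.473 TPM and KDR at most 0.119 TPM. The 5 fibroblast markers summed to 9.76 to 28.0 TPM and to 2.69 to 39.7 TPM. Among them COL1A1 ran from 8.92 to 26.5 TPM in the 12 and from 2.06 to 38.5 TPM in the 14. PDGFRB reached 3.47 TPM, COL3A1 1.87 TPM and DCN 1.07 TPM, and LUM was at most 0.243 TPM. The acinar markers reached 0.948 TPM in sum, and the neural and Schwann markers reached 1.35 TPM in sum. Their part in the levels of the 10 genes was not tested.

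The comparison that the labels define, Panc-1 against BxPC3, was tested with edgeR over 16008 genes. It called 0 genes (0%) at an adjusted p under 0.05 with an absolute log2 fold change over 1, and 367 genes had an unadjusted p under 0.05. DESeq2 called 2 genes, neither one of the 10, and limma called 0. Of the 10 genes, 8 passed the filter on low counts, CDH4 and NCAM1 being left out, and none of the 8 was called. CDH3 had a log2 fold change of -0.49 (SE 1.09), CDH2 of -0.53 (SE 0.74), VIM of -0.31 (SE 1.14) and L1CAM of 0.12 (SE 1.22), each with an adjusted p of 0.99998 in edgeR. Each label spans both kinds of library. VIM, for example, spanned 7.24 to 4526 TPM under the BxPC3 label and 1.42 to 4306 TPM under the Panc-1 label. The sign for CDH2 rested on library 20, since without it the log2 fold change was 0.73.

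Within each SMAD4 set the label could be compared without that gap. In each set, however, SMAD4 went against the label of 7 libraries. These fits therefore compare labels and cannot stand for a comparison of the lines. In the 12, CDH3 ran from 216 to 443 TPM in the 5 with the BxPC3 label and from 110 to 263 TPM in the 7 with the Panc-1 label, a log2 fold change of -0.76 (SE 0.26) with an adjusted p of 0.405 in edgeR. CDH1 ran from 123 to 198 TPM and from 90.8 to 153 TPM, a log2 fold change of -0.45 (SE 0.13) with an adjusted p of 0.404 in edgeR. Both pairs of ranges overlapped and neither passed the test, nor did any of 16124 genes in this set, of which 1840 had an unadjusted p under 0.05 (1136 without library 21, and 1258 to 2518 with any other left out). In the 14, the log2 fold change of CDH3 was 0.91 (SE 0.67, adjusted p of 0.982 in edgeR) and that of L1CAM 0.33 (SE 0.30, the same adjusted p). That of CDH3 was 0.36 without library 11 and 0.43 without library 8, and that of L1CAM 0.20 without library 8 and 0.54 without library 20. NCAM1 had -1.86 (SE 0.94), also with an adjusted p of 0.982 in edgeR, and without its highest library, 19, which is labelled BxPC3, the direction turned to 0.42 (SE 0.54). A test of whether the label difference differed between the sets gave the smallest adjusted p among the 8 tested genes for CDH3, at 0.625 in edgeR with a difference of 1.68 (SE 0.78) in log2 units.

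**Figure D4:**
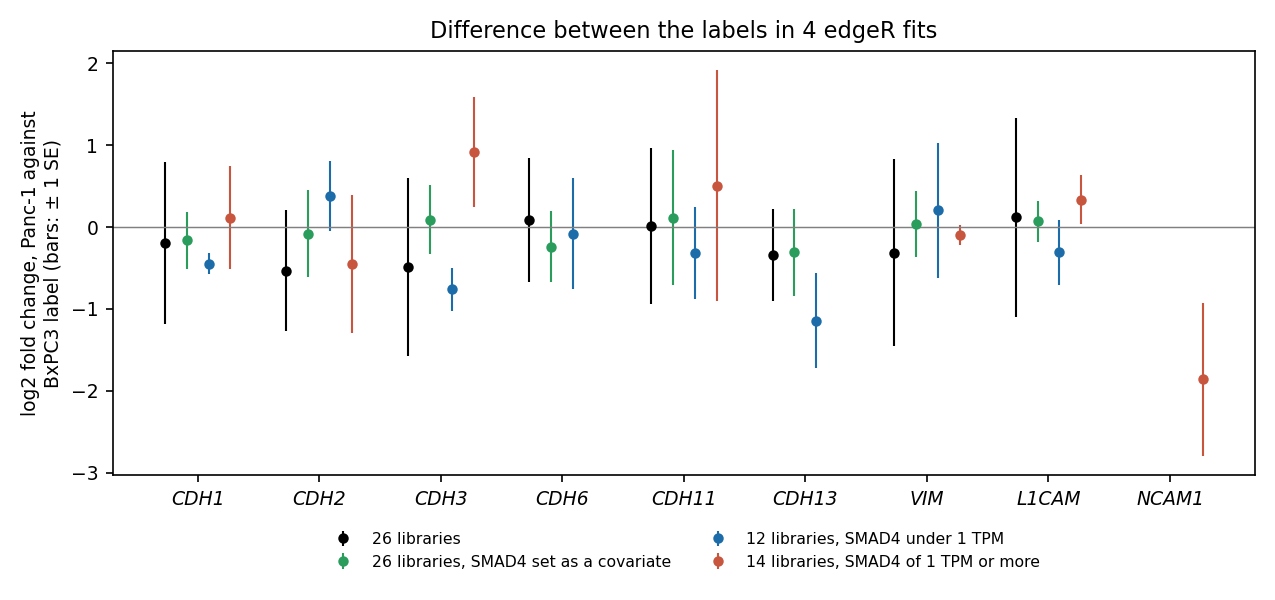
Fold change on the log2 scale, label Panc-1 over label BxPC3, with bars of 1 SE, for the genes that passed the filter in 4 edgeR fits: all 26 libraries, all 26 with the SMAD4 set as a covariate, and each set alone. With the set as a covariate the SE of L1CAM is 0.25 instead of 1.22, and no gene passes the test in any fit.

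Whether the genes varied together among clones was examined within each set, for the 10 pairs in each whose genes had medians of at least 1 TPM. Among the 14, VIM and L1CAM ran in opposite directions, with Pearson r of -0.74 on log2(TPM + 1) (permutation p = 0.00242, adjusted p = 0.0484 over the 20 pairs) and Spearman rho of -0.67 (permutation p = 0.0101, adjusted p = 0.202). Without libraries 14 and 23, the farthest from the median of VIM, r was -0.61. The libraries highest in L1CAM, 8, 14 and 20, had VIM at 3171, 3047 and 3459 TPM, and the lowest, 18 and 23, had it at 4380 and 4526 TPM. With edgeR's CPM in place of TPM, r was -0.61 with an adjusted permutation p of 0.239. With each of the 14 libraries left out, r ran from -0.80 to -0.67 and the adjusted permutation p was under 0.05 in 3 of the 14 fits. No other pair passed. CDH1 and L1CAM in the 14 had r of 0.54 and rho of 0.61 (permutation p of 0.0477 and 0.0250, adjusted p of 0.318 and 0.250). In the 12, CDH3 and CDH11 had r of 0.61 and rho of 0.61 (permutation p of 0.0394 and 0.0408, adjusted p of 0.318 and 0.272). CDH1 and CDH2, the genes of the cadherin switch, had r of -0.00081 in the 12 (permutation p = 0.998, adjusted p = 0.998) and of -0.25 in the 14 (permutation p = 0.383, adjusted p = 0.589), with rho of -0.056 and -0.27 (adjusted permutation p of 0.933 and 0.579). CDH1 and CDH3, the neighbours on chromosome 16, had r of 0.42 in the 12 (permutation p = 0.174, adjusted p = 0.554) and of 0.27 in the 14 (permutation p = 0.346, adjusted p = 0.577), with rho of 0.36 and 0.11 (adjusted permutation p of 0.579 and 0.883).

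**Figure D5:**
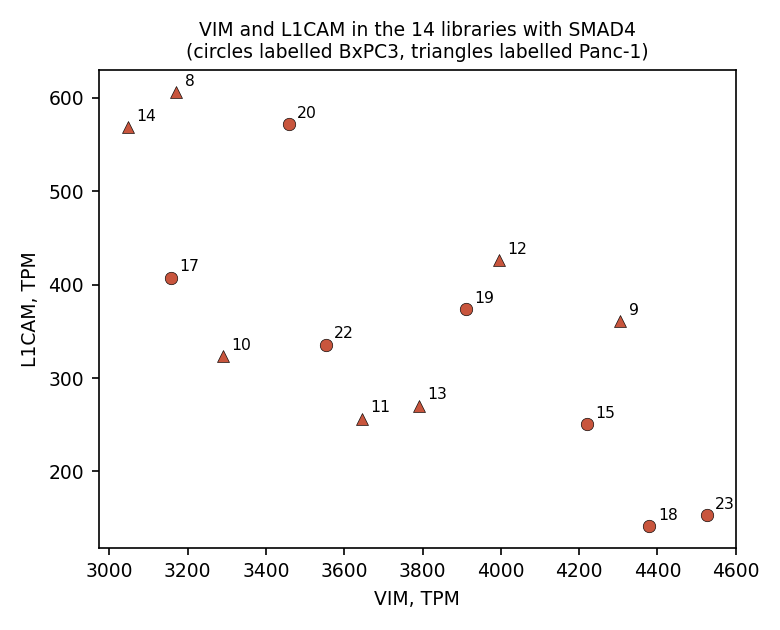
TPM of L1CAM against TPM of VIM in the 14 libraries with SMAD4, 1 point per library with its number (circles labelled BxPC3, triangles labelled Panc-1). Libraries 18 and 23 have the lowest L1CAM and the highest VIM, and libraries 8, 14 and 20 the highest L1CAM with VIM at 3459 TPM or less.

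As a description without a test, the genes whose log2(TPM + 1) was most like that of each member were listed within each set by Pearson's r. Among 12992 genes over the 12 libraries these were MAN2A1 (0.97) and NPC1 (0.95) for CDH3, SRP54 (0.95) and USP33 (0.92) for CDH1, ARHGAP29 (0.94) and IFFO2 (0.94) for CDH2, RNASET2 (0.92) for CDH11, and AOX1 (0.93) and EMP3 (0.91) for VIM. Among 12430 genes over the 14 libraries they were PANX1 (0.91) and AVPR2 (0.90) for L1CAM, GJA1 (0.90) and ZNG1A (0.79) for CDH3, PHTF2 (0.87) for CDH2, and PDXK (0.80) and RHPN2 (0.78) for CDH1. No gene was among the most alike for the same member in both sets. AVPR2 is known to lie close to L1CAM on the X chromosome. GJA1 encodes the gap junction protein connexin 43 and ran from 0 to 9.26 TPM in the 14. With so many genes and few libraries the highest r is large by construction, and all points share their library and its depth.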

How the data were processed

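Polyadenylated RNA of 26 SCDCLs was sequenced at 27035724 to 34945608 estimated counts per library. The authors deposited 1 table in which transcripts had been quantified with kallisto 0.46.1 on an Ensembl annotation of GRCh38 and combined per gene with tximport. It holds TPM, which is corrected for transcript length and is a share of each library. It also holds estimated counts, which the authors derived from TPM through mean lengths and set to each library's total. A further 806 columns with transcript lengths and resampled counts were not used. Counting errors and Poisson bounds cover counting error only. Groups came from the labels. Members, lists of related genes and markers, and the division at 1 TPM of SMAD4 were chosen with earlier results of these data known. No 2 libraries agreed within sampling noise (325 pairs). Symbols were matched by Ensembl identifier for 30340 of 41078 genes, and positions are from GENCODE on GRCh38.

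Estimated counts were rounded and tested with edgeR 4.0.16 (filterByExpr, TMM, quasi-likelihood test, Benjamini-Hochberg adjustment over all genes), calling genes with a log2 fold change beyond 1 in size and an adjusted p below 0.05. SEs were taken from the fold change and its F statistic. Correlations used log2(TPM + 1), 100000 permutations (two-sided) and adjustment over 20 pairs. The 10 members are named always, with the 2 genes of highest median TPM per set among those without overlap in each list, CDH5, CTNNB1, ST8SIA2 and ST8SIA4, and the 2 genes most like a member by r (median of at least 1 TPM and a 2-fold range in the set), of which some are not reported here. Markers were named as a check, and libraries by number. Alternatives were DESeq2 1.42.0 and its size factors, limma 3.58.1 on log2(TPM + 1), no filter, SMAD4 set as a covariate or each set alone, other pseudocounts and thresholds, and each library left out. The label test and the correlations were tested on simulated data. For the label test these data held no SMAD4 split within the labels, unlike the libraries here. Python 3.11.15 and R 4.3.3 were used.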

Additional observations from a re-analysis of the deposited data

How the results depend on the processing

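The 12 and 14 libraries were the same at a SMAD4 threshold of 10 TPM, and CDH1, CDH3, VIM and L1CAM separated them under every alternative run. NCAM1 no longer did with 95% Poisson bounds of the counts in place of each library (an alternative chosen after seeing the data) or when ranges had to be 2-fold apart with a pseudocount of 1, which left 2 genes higher in the 14. Of the planned use of the 30 sets of resampled counts deposited for each library, only a trial with 5 sets was made and not kept. In it NCAM1 no longer separated the libraries, while CDH1, CDH3, VIM and L1CAM did. With each library left out, 3 genes were higher in the 14 and 2 to 3 in the 12, the third being CDH6 without library 3. Between the labels DESeq2 called 2 genes and every other fit 0, also with each library left out (0 to 0), and none of the 10 genes was called (0 to 0). The direction of members that were never called turned in some fits. CDH2 became 0.24 in limma on log2(TPM + 1), which changes both the tool and the measure, 0.38 in the 12 alone and 0.73 without library 20, with a range of -0.84 to 0.73 as each library was left out. CDH3 became 0.27 in that limma fit, 0.089 with the set as a covariate and 0.91 in the 14 alone, and ran from -0.71 to -0.096 with libraries left out. L1CAM became -0.48 in it and -0.31 in the 12 alone, and ran from -0.13 to 0.41 with libraries left out, being -0.13, -0.016 and -0.084 without Panc-1 libraries 8, 12 and 14 and -0.0095, -0.0095, -0.010, -0.010 and -0.0098 without BxPC3 libraries 16, 21, 24, 25 and 26. In the 14, the number of pairs past the threshold fell from 1 to 0 with CPM, a pseudocount of 0.1 or Spearman's rho, and was 0 to 1 with libraries left out. The pair VIM and L1CAM then had r of -0.61 (adjusted permutation p = 0.239), -0.74 (0.0528) and rho of -0.67 (0.202), and with libraries left out r ran from -0.80 to -0.67, with adjusted p of 0.0230 to 0.205. In the 12 the number was 0 to 1, with CDH3 and VIM past the threshold without library 6 (r of 0.78, adjusted permutation p = 0.0495). The cause of these changes was not tested. The interaction of label and set, and the fits within a set with each library left out, were added after the data were seen. No paired analysis was possible, because each SCDCL gave 1 library and the labels pair no clone of one line with a clone of the other. Depth limits CDH4, CDH13 and NCAM1, which rest on few estimated counts in most libraries. It also limits CDH6 in the 14.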
